A study of Mus musculus with 65 samples.

Results

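Expression of 7 genes of the Notch pathway, of 11971 genes measured, was examined in 65 single cells of the embryonic mouse cortex. The genes are the receptors Notch1 and Notch2, the targets Hes1, Hes5 and Nrarp, the ligand gene Dll1 and Mfng, whose product modifies the receptors. They were chosen by name, with earlier results of these data known. The cells came from C57BL/6J embryos at E13.5, whose cortical hemispheres were dissected without the ganglionic eminences, and the brains of all embryos were pooled. Live cells, which exclude propidium iodide, were sorted singly into lysis buffer, and cDNA was made with a kit that reads whole transcripts without molecular identifiers. All 65 cells form 1 group, labelled neural progenitor, with no other genotype, treatment or time to compare. The question was which cells carried the receptors and targets and which carried Dll1 and Mfng. The pooled cells cannot be traced to single embryos and are not replicates, so no p-value was made, and intervals are exact 95% binomial intervals that cover counting error only.

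Notch receptors are membrane proteins that are cut when a Delta or Jagged ligand on a neighbouring cell binds them. The freed intracellular part enters the nucleus, joins the DNA-binding protein RBPJ and a Mastermind coactivator, and switches on Hes and Hey genes and Nrarp. Hes proteins repress proneural genes such as Neurog2, and proneural proteins in turn switch on Dll1, so that in the developing brain a cell that begins to differentiate signals to its neighbours. In the cortical wall, Notch signalling is known for keeping apical progenitors from differentiating. Fringe enzymes such as the one encoded by Mfng add sugars to the receptor and change which ligands it answers to.

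Cells differed widely in depth, with 85338 to 32130629 reads in genes (median 14609426) and 2403 to 7337 detected genes. By their titles the cells belong to 3 sets, numbered 1 to 3 and not explained in the labels, of 31, 13 and 21 cells with median totals of 14032041, 8127759 and 22483962 reads. A cell was said to carry a gene at 10 CPM or more, where CPM is a gene's reads scaled to a total of 1000000 reads in genes. This is a level that the median gene of the table reached in 10 cells. CPM is not corrected for transcript length, so the levels of different genes are not compared. In the shallowest cell, of set 2, a single read exceeds 10 CPM.

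Cells were assigned to classes by genes other than the 7. Dlx cells (n = 10) carried at least 3 of 6 genes of ventral forebrain and interneurons, namely Dlx1, Dlx2, Dlx5, Dlx6as1, Gad2 and Sp9. Of the remaining cells, Neurod6 cells (n = 16) carried Neurod6, a gene of excitatory neurons, Eomes cells (n = 10) carried Eomes, a gene of intermediate progenitors, and Sox2 cells (n = 16) carried Sox2, a gene of apical progenitors. The other 13 cells carried none of these. The label progenitor thus did not hold for all cells by their markers, since Neurod6 cells carried a median of 6 of 7 listed excitatory neuron genes, against 1 of 7 in Sox2 cells, in a list that holds the class gene Neurod6 itself. Of 7 apical progenitor genes, a list that includes Hes1 and the class gene Sox2, Sox2 cells carried a median of 5, Eomes cells 2.5 and Neurod6 cells 2. The classes share some genes: 10 of the Neurod6 cells also carried Eomes, 3 of the Eomes cells also carried Sox2, and 3 of the Dlx cells carried Sox2. Between 5 and 20 CPM, near the threshold, lay 2 cells for Sox2, 2 for Eomes and 0 for Neurod6. Title sets 1, 2 and 3 gave 7, 3 and 6 of the Sox2 cells, 3, 3 and 4 of the Eomes cells and 11, 2 and 3 of the Neurod6 cells. No gene of the microglial markers measured, Aif1 and C1qb, reached 10 CPM in any cell. Of 5 listed endothelial genes 0 were measured, so endothelial cells could not be recognised by them.

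The stretches upstream of 2 targets and of the ligand gene are shown, because Notch targets are switched on through RBPJ bound near them, whereas Dll1 is known to be switched on by proneural proteins. They are taken from RefSeq on build GRCm38.p6 and run 5′ to 3′ from 250 bases before the start of the gene to 50 after it, and 5 of the 7 genes had an entry. Capitals mark TGGGAA, the core of the motif that RBPJ binds, or TTCCCA, the same core on the opposite strand.
Hes5, chr4:154960673-154960972, plus strand: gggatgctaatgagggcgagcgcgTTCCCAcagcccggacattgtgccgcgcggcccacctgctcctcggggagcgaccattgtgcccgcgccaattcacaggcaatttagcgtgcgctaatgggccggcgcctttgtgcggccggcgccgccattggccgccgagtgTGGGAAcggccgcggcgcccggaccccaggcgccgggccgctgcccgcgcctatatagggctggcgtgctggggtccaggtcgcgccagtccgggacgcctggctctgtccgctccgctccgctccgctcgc
Nrarp, chr2:25180508-25180807, plus strand: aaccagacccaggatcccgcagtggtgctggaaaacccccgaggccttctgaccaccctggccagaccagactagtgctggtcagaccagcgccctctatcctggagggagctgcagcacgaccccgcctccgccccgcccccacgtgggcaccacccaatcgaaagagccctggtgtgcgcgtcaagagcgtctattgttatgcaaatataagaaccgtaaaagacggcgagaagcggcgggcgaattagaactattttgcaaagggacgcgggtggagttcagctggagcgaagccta
Dll1, chr17:15375774-15376073, minus strand: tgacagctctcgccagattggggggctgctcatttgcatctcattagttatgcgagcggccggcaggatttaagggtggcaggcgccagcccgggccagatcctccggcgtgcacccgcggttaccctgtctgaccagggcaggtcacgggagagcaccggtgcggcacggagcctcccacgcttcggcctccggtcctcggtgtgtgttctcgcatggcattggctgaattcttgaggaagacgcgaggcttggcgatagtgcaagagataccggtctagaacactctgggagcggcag
The Hes5 stretch held the core 2 times, on opposite strands, starting 226 and 82 bases before the gene. The stretches of Nrarp and Dll1 held it 0 times, as did those of Notch1, Notch2 and a second start of Dll1. Searched on both strands, TGGGAA was in 25.4% of all 32544 promoters of this length, so its presence describes these letters and shows no binding. CANNTG, the E-box letters that proneural proteins bind, was found 1 time in the Hes5 stretch, 2 times in that of Nrarp, 1 time in the Dll1 stretch shown and 3 times at its second start, and in 72.3% of all promoters.

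The share of cells with a receptor or with Hes1 or Nrarp was highest in the Sox2 class, and the share with Dll1 or Mfng was highest in the Eomes class, although many carrying cells lay outside these classes. Of the 39 cells with a receptor or target, 16 were Sox2 cells, and of the 29 with Dll1 or Mfng, 9 were Eomes and 10 were Neurod6 cells. The Neurod6 cells here are not apart from Eomes expression. All of them that carried Dll1, and most that carried Mfng, also carried Eomes. All 16 Sox2 cells carried at least 1 receptor or target, and 14 of them carried neither Dll1 nor Mfng. Of the 10 Eomes cells, 9 carried Dll1 or Mfng. Across all 65 cells, 16 carried genes of both kinds and 13 carried none of the 7.

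**Figure D1:**
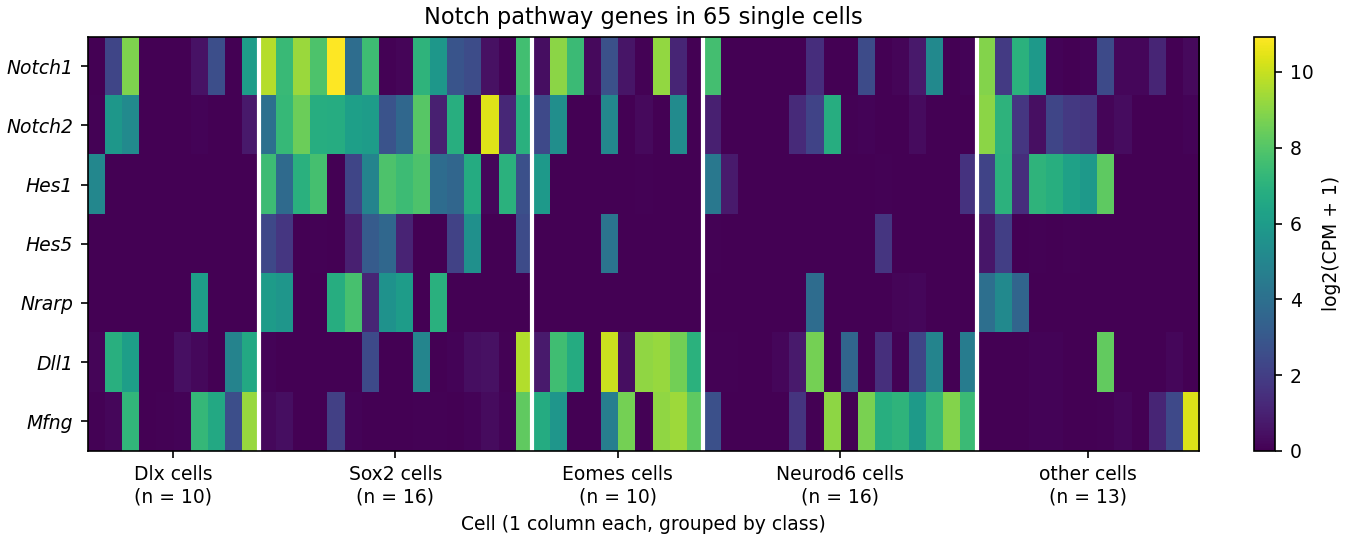
Level of the 7 genes in each of the 65 cells, as log2(CPM + 1) in colour, with 1 column per cell and white lines between the classes. Notch1, Notch2 and Hes1 are most often bright among the 16 Sox2 cells, and Dll1 and Mfng among the 10 Eomes cells, with Mfng also high in 8 of the 16 Neurod6 cells.

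Notch1, a receptor gene, was carried by 20 of 65 cells (30.8%, interval 19.9% to 43.4%), with a median of 188 CPM in those cells. In Sox2 cells it had a lowest value of 0.0435, a median of 94.4 and a highest of 1949 CPM, and 10 of 16 carried it. In Eomes cells the lowest, median and highest were 0, 0.875 and 564 CPM (3 of 10 cells), and in Neurod6 cells 0, 0 and 199 CPM (2 of 16). The classes overlapped, since some Sox2 cells were close to 0, and 3 Eomes cells and 1 Neurod6 cell exceeded the Sox2 median. Among these Eomes cells was the shallowest of the 65 cells, with 15 reads of Notch1 (176 CPM). The 2 Neurod6 cells that carried Notch1 had 34.9 and 199 CPM, and the 2 Dlx cells had 456 and 65.2 CPM.

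Notch2, which encodes a related receptor, was also carried by 20 of 65 cells, with a median of 109 CPM in them. Its lowest, median and highest values were 0.0382, 89.5 and 1366 CPM in Sox2 cells (12 of 16 carried it) and 0, 0.106 and 41.3 CPM in Eomes cells (3 of 10). They were 0, 0 and 110 CPM in Neurod6 cells, where 1 of 16 carried it. No Eomes cell therefore reached the median of the Sox2 cells, and 1 Neurod6 cell did. The 95% intervals of the share of carrying cells were 0.158% to 30.2% in Neurod6 cells and 47.6% to 92.7% in Sox2 cells, which do not overlap, whereas that of Eomes cells (6.67% to 65.2%) overlaps both.

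The receptors tended to be found in the same cells. Of the 20 cells with Notch1, 12 (60%, 36.1% to 80.9%) carried Notch2, against 8 of the 45 without Notch1 (17.8%, 8% to 32.1%). Of the 12 cells with both, 9 were Sox2 cells. Spearman's rho between the receptors was 0.538 across the 65 cells and 0.58, 0.122 and 0.541 within title sets 1, 2 and 3. All correlations here describe these cells, which share a pool, title sets and differences in depth.

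Hes1, a repressor of proneural genes and a direct Notch target, was carried by 21 of 65 cells (32.3%, 21.2% to 45.1%). In Sox2 cells its lowest, median and highest values were 0, 67.5 and 237 CPM, and 12 of 16 carried it. In Eomes and Neurod6 cells the median was 0 CPM, and a single cell of each class carried it, at 57.3 and 19.6 CPM. Outside the Sox2 class Hes1 was thus rare among Eomes, Neurod6 and Dlx cells, but 6 of the 13 other cells carried it, up to the highest value of 299 CPM. The 4 Sox2 cells without Hes1 had 5.35, 3.94, 0.13 and 0 CPM, all in sets 1 and 2, and each of them carried a receptor.

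The share of cells with Hes1 differed between the title sets. It was carried by 6 of 31 cells of set 1 (19.4%, 7.45% to 37.5%), 1 of 13 of set 2 (7.69%, 0.195% to 36%) and 14 of 21 of set 3 (66.7%, 43% to 85.4%), and without set 3 by 15.9% of 44 cells. Of the 6 other cells with Hes1, 5 were of set 3. Set 3 was the deepest set, and Hes1 was correlated with total reads across all cells (rho 0.577, and 0.44, 0.192 and 0.289 within sets 1, 2 and 3). Haemoglobin and other erythroid transcripts also differed by set. The summed level of 4 listed genes had a median of 0.885 CPM in set 1 (range 0 to 505). The median was 607 CPM in set 2 (197 to 5613) and 736 CPM in set 3 (57.4 to 2114). In cells with Hes1 it was 550 CPM (0 to 2114), and in all 65 cells 236 CPM (0 to 5613). In the other class, 2 cells of set 3 with Hes1 carried the mural and meningeal genes Col3a1 (3009 and 4701 CPM) and Col1a1. Pdgfrb, a further gene of that list, was carried by 1 cell of the class (366 CPM). The part of depth, title set and these transcripts in the Hes1 values was not tested. Within the Sox2 class Hes1 was carried by 5 of 7 cells of set 1, 1 of 3 of set 2 and 6 of 6 of set 3, whereas Notch1 was carried by 6, 2 and 2 of them.

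**Figure D2:**
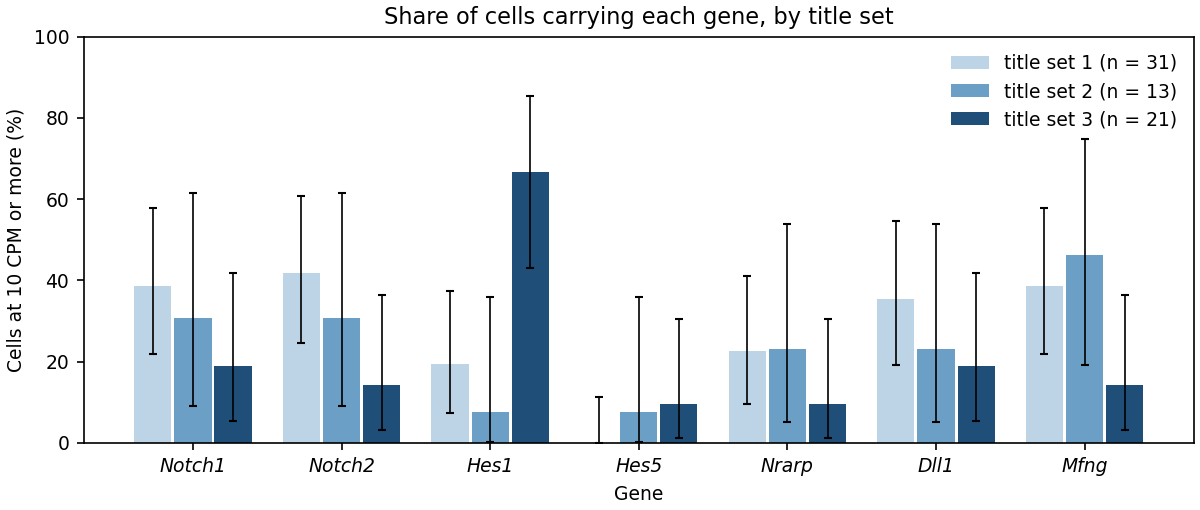
Share of cells at 10 CPM or more for each gene (y axis, percent) in title sets 1 (n = 31), 2 (n = 13) and 3 (n = 21), with exact 95% intervals for counting error. Hes1 stands at 66.7% in set 3, against 19.4% and 7.69% in sets 1 and 2, while Notch2 stands at 41.9%, 30.8% and 14.3% in sets 1, 2 and 3.

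Nrarp, which encodes an ankyrin repeat protein that dampens Notch signalling and is itself a target, was carried by 12 of 65 cells (18.5%, 9.92% to 30%). Of these, 7 were Sox2 cells, with values from 46.7 to 217 CPM, and 9 of the 16 Sox2 cells lay below 10 CPM. Nrarp had 0 CPM in every one of the 10 Eomes cells, a share of 0% with an interval up to 30.8%, and was carried by 1 of 16 Neurod6 cells at 13.6 CPM. The Nrarp cells were spread over the sets as 7, 3 and 2, unlike those of Hes1. Of the 12 Nrarp cells, 7 carried Notch1 and 6 carried Hes1.

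Hes5, a relative of Hes1 and also a Notch target, was at the limit of what could be described. It was carried by 3 of 65 cells (4.62%, 0.962% to 12.9%), at 43.4 and 11.6 CPM in 2 Sox2 cells of set 3 and at 17.6 CPM in an Eomes cell of set 2. Another 14 cells had reads below 10 CPM, up to 7.93 CPM. All 3 cells carried Sox2 and Pax6, transcription factor genes of cortical progenitors. Hes5 and Hes1 varied together (rho 0.553, and 0.74, 0.403 and 0.371 within sets 1, 2 and 3), on values that were mostly near 0, and Hes5 was also correlated with total reads (rho 0.416).

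Dll1, the Delta ligand gene, was carried by 18 of 65 cells (27.7%, 17.3% to 40.2%). In Eomes cells its lowest, median and highest values were 0, 159 and 1075 CPM, and 7 of 10 carried it, each at 105 CPM or more. In Sox2 cells they were 0, 0.0222 and 814 CPM (2 of 16) and in Neurod6 cells 0, 0.0936 and 404 CPM (4 of 16, all of set 1). The Eomes class therefore held most of the high values, but the Sox2 and Neurod6 classes each had a cell above its median. The interval of the share in Eomes cells (34.8% to 93.3%) just overlaps that in Sox2 cells (1.55% to 38.3%). Dlx cells carried Dll1 in 4 of 10, at 28.5 to 119 CPM. The Eomes cell with 105 CPM was the shallowest of the 65 cells, where this level was 9 reads.

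Mfng, the Manic fringe gene, was carried by 21 of 65 cells (32.3%, 21.2% to 45.1%). Its lowest, median and highest values were 0, 0.0613 and 306 CPM in Sox2 cells, where 1 of 16 carried it. They were 0, 79.5 and 638 CPM in Eomes cells (7 of 10) and 0, 33.3 and 531 CPM in Neurod6 cells (8 of 16, each at 61.3 CPM or more). A single Sox2 cell thus reached the range of the carrying Eomes and Neurod6 cells. The interval of the share in Eomes cells (34.8% to 93.3%) does not overlap that in Sox2 cells (0.158% to 30.2%), whereas that in Neurod6 cells (24.7% to 75.3%) does. The highest value of the 65 cells, 1318 CPM, was in a cell of the other class. That cell also carried the Cajal-Retzius marker genes Trp73 (1156 CPM) and Lhx1 (1159 CPM).

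**Figure D3:**
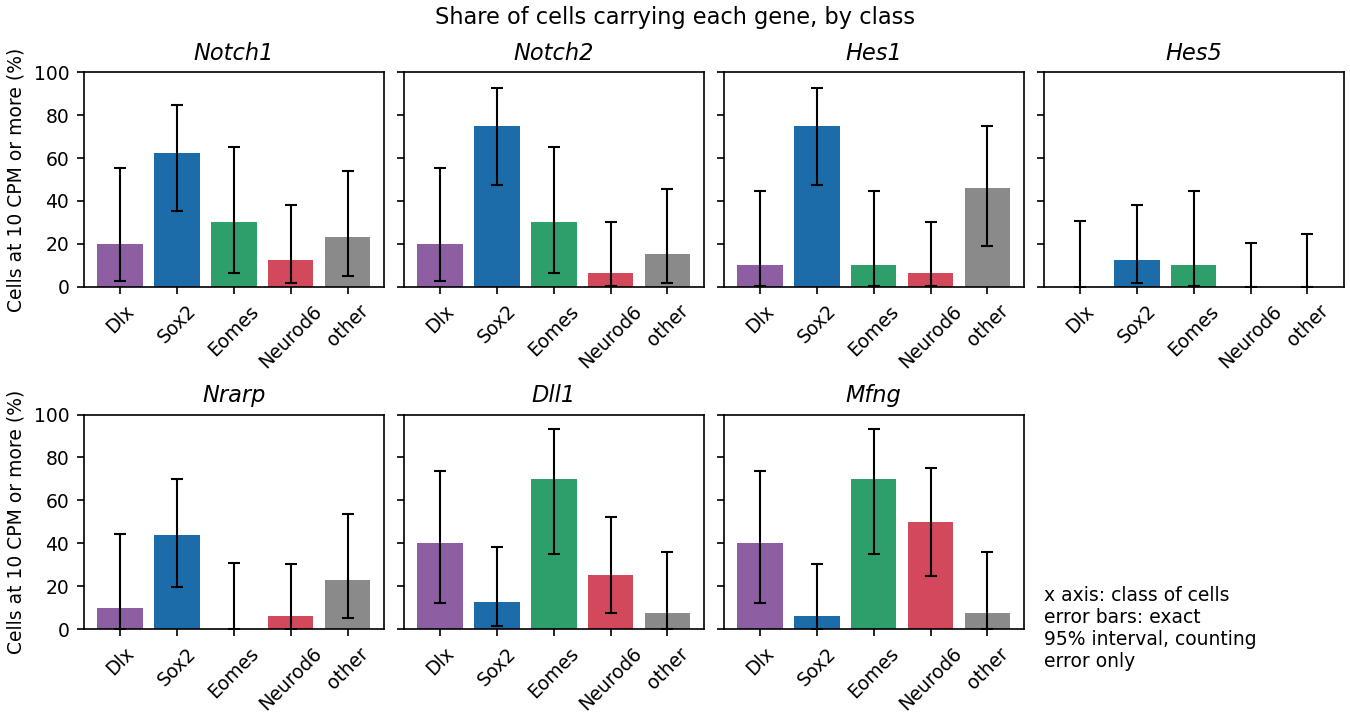
Share of cells at 10 CPM or more for each of the 7 genes (y axis, percent) by class of cells, with exact 95% intervals for counting error; classes hold 10 Dlx, 16 Sox2, 10 Eomes, 16 Neurod6 and 13 other cells. Notch2 and Hes1 stand at 6.25% in Neurod6 cells and at 75% in Sox2 cells, while Dll1 and Mfng stand at 70% in Eomes cells.

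Dll1 and Mfng shared part of their cells. Of the 18 cells with Dll1, 10 (55.6%, 30.8% to 78.5%) carried Mfng, against 11 of the 47 without Dll1 (23.4%, 12.3% to 38%), and rho was 0.351 (0.362, 0.0362 and 0.588 within sets 1, 2 and 3). Of the 10 cells with both, 5 were Eomes cells. Of the 11 with Mfng alone, 6 were Neurod6 cells, and of the 8 with Dll1 alone, 2 were.

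Target genes and the pair Dll1 and Mfng were seldom carried by the same cell. Dll1 or Mfng was carried by 6 of the 28 cells with a target (21.4%, 8.3% to 41%), against 23 of the 37 cells without one (62.2%, 44.8% to 77.5%). Within title sets the counts were 1 of 10 against 15 of 21 in set 1, 2 of 4 against 5 of 9 in set 2, and 3 of 14 against 3 of 7 in set 3, so the difference was in the same direction in each set and small in set 2. Outside the Sox2 class it was 5 of 14 (35.7%, 12.8% to 64.9%) against 22 of 35 (62.9%, 44.9% to 78.5%), with overlapping intervals. Mfng in particular was carried by 1 of the 21 cells with Hes1 (4.76%, 0.12% to 23.8%), against 20 of the 44 without (45.5%, 30.4% to 61.2%), and rho between Hes1 and Mfng was −0.391 (−0.313, −0.402 and −0.298 within the sets). Dll1 was carried by 2 of the 21 cells with Hes1 (9.52%, 1.17% to 30.4%), against 16 of the 44 without (36.4%, 22.4% to 52.2%). Counted from a single read, the shares with Dll1 or Mfng were 75% of cells with a target and 82.8% of cells without.

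For the receptors the corresponding shares were close. Dll1 or Mfng was carried by 12 of the 28 cells with a receptor (42.9%, 24.5% to 62.8%), against 17 of the 37 cells without one (45.9%, 29.5% to 63.1%). Outside the Sox2 class it was 10 of 15 (66.7%, 38.4% to 88.2%) against 17 of 34 (50%, 32.4% to 67.6%). Counted from a single read, the shares were 79.2% of cells with a receptor and 75% of cells without. Of the 7 Eomes cells with Dll1, 5 also carried a receptor, among them the shallowest cell. Cells with a receptor carried a target in 17 of 28 cases (60.7%, 40.6% to 78.5%), against 11 of 37 without a receptor (29.7%, 15.9% to 47%). Of the 11 cells with a receptor and no target, 2 were Sox2 and 4 were Eomes cells. Of the 11 cells with a target and no receptor, 9 were of set 3.

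The 6 cells with a target and Dll1 or Mfng were of 5 classes. A Sox2 cell of set 3 had 233 CPM of Hes1 and 30.5 CPM of Dll1, together with both receptors. An Eomes cell of set 2 had 17.6 CPM of Hes5, 1075 CPM of Dll1 and 24.3 CPM of Mfng, and an Eomes cell of set 3 had 57.3 CPM of Hes1 and 106 CPM of Mfng. The other 3 were a Neurod6 cell with little Nrarp (13.6 CPM) and much Dll1 (404 CPM), a Dlx cell with 66.3 CPM of Nrarp and 156 CPM of Mfng, and a cell of the other class with 299 CPM of Hes1 and 318 CPM of Dll1. The single Sox2 cell with Mfng (306 CPM) had 814 CPM of Dll1, 194 CPM of Notch1 and 120 CPM of Notch2, and 5.35 CPM of Hes1. No doublet caller was run on these 65 singly sorted cells.

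**Figure D4:**
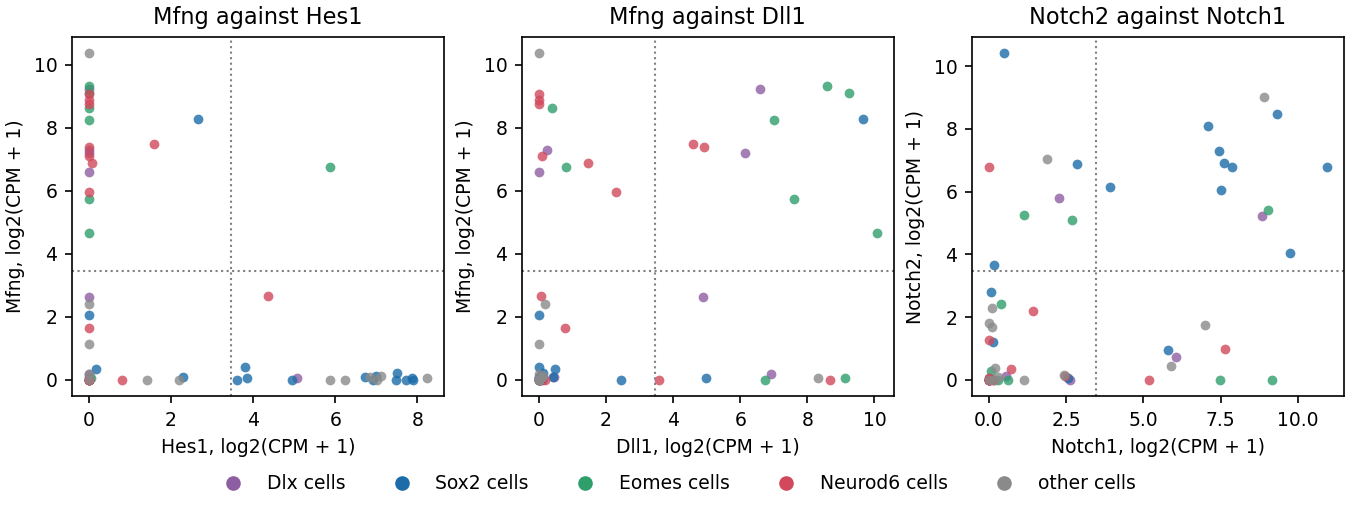
Levels of 3 pairs of genes in the 65 cells, as log2(CPM + 1) on both axes, coloured by class, with dotted lines at 10 CPM. A single cell lies above both lines for Hes1 and Mfng, 10 do for Dll1 and Mfng, and 12 do for Notch1 and Notch2.

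The differences between classes were set beside those of all genes in the table. A difference of 25 percentage points or more in the share of carrying cells was counted over 8537 genes carried by at least 5 cells, which leaves out Hes5, so that 6 of the 7 were compared. Between Eomes and Sox2 cells, 4 of the 6 were lower in Eomes cells, where 11.7% of all genes were, and 2 of 6 were higher, where 5.39% were. Between Neurod6 and Sox2 cells, 4 of the 6 were lower in Neurod6 cells, where 13.9% of all genes were, and 1 of 6 was higher, where 9.43% were. Between Dlx and Neurod6 cells, 0 of the 6 were lower in Dlx cells and 0 were higher, where 9.41% and 5.19% of all genes were. The median difference over the 6 genes was −38.1, −43.8 and 5.63 points in these comparisons, and over all genes −2.5, 0 and −1.25 points. The first 2 comparisons share the Sox2 cells, and none has a replicate check.

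Gene by gene, the share of carrying cells in Eomes cells minus that in Sox2 cells was −65 points for Hes1, −45 for Notch2, −43.8 for Nrarp and −32.5 for Notch1. It was 63.7 points for Mfng and 57.5 points for Dll1. Counted from a single read, Notch1 (−10 points) and Mfng (17.5 points) were no longer past 25 points in this comparison, while Hes5 stood at −52.5 points. In Neurod6 cells the differences from Sox2 cells were −68.8 points for both Notch2 and Hes1, −50 for Notch1 and −37.5 for Nrarp, and 43.8 for Mfng. Dll1 (12.5 points) was not past 25 points there, and stood at −11.1 points without set 1. Counted from a single read, Mfng stood at 0 points and Hes5 at −50 points. Notch1 was still lower in Neurod6 cells without set 1, at −24.4 points, just short of 25 points. Dll1 was carried by 4 of 10 Dlx cells and 4 of 16 Neurod6 cells (15 points) and Mfng by 4 of 10 and 8 of 16 (−10 points). Without set 1, Dll1 and Nrarp each stood at 25 points in that comparison, and without set 2 Mfng stood at −25 points. Sets 2 and 3 held only 2 and 2 Dlx cells and 2 and 3 Neurod6 cells. The direction for Mfng turned to 10 points without set 1 and to 27.5 points when counted from a single read.

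Genes of the cell cycle and of neuronal differentiation were distributed over the same cells. Mki67, a gene of dividing cells, was carried by 15 of the 20 cells with Notch1, against 10 of the 45 without, and by 10 of the 12 cells with Nrarp, against 15 of the 53 without. Ccnb1, a cyclin gene of mitosis, was carried by 15 of the 21 cells with Hes1, against 11 of the 44 without. Mki67 was carried by 11 of those 21, against 14 of 44. Cells with Dll1 also held genes of division, with Mki67 in 8 of 18, against 17 of 47. Top2a, a further gene of dividing cells, was in 11 of those 18, against 21 of 47. For Mfng the shares with Mki67 were 8 of 21 and 17 of 44. Of 3 listed genes of dividing cells, Sox2 cells carried a median of 3, Eomes cells 0.5 and Neurod6 cells 1, and the part of division in the receptor and target values was not tested. Dcx, a microtubule gene of young neurons, was carried by 2 of the 21 cells with Hes1, against 32 of the 44 without. Of the 21 cells with Mfng, 16 carried Dcx, against 18 of the 44 without. For Dll1 the shares were close, with Dcx in 10 of 18 cells, against 24 of 47, and Neurod6 in 4, against 12. Btg2, a gene of progenitors that are about to form neurons, was carried by 15 of the 18 cells with Dll1, against 15 of the 47 without, and also by 14 of the 20 cells with Notch1, against 16 of the 45 without. Eomes itself was carried by 11 of the 18 cells with Dll1, against 9 of 47, and by 13 of the 21 cells with Mfng, against 7 of 44. These counts take in Neurod6 cells that also carried Eomes.

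The remainder of the pathway was described with a list of 56 genes, the 7 included, of which 47 were measured and 38 were carried by at least 5 cells. The other listed genes, such as Notch4, Dll4, Jag2 and Heyl, were not analysed here. The 38 compared genes include 6 of the 7, so the counts in part repeat those above. Of the 38, 6 were lower in Eomes than in Sox2 cells, where 11.7% of all genes were, and 7 were higher, where 5.39% were. In Neurod6 cells against Sox2 cells 8 were lower, where 13.9% of all genes were, and 4 were higher, where 9.43% were. Notch1, Notch2, Hes1 and Nrarp were among the lower genes in both comparisons. Mfng was among the higher genes in both, and Dll1 in Eomes cells. The list was not counted without the 7. The median differences of the list were −1.25 and −3.12 points, close to the −2.5 and 0 points of all genes.

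Among receptors and ligands, Notch3 was carried by 5 cells, of which 3 were Sox2 cells. Dll3, a Delta-like gene whose product acts within its own cell, was carried by 8 cells, of which 0 were Sox2 cells. Jag1, a Jagged ligand gene, was carried by 9 cells, of which 3 were Sox2 and 4 were Neurod6 cells. Dner, a Notch ligand-like gene of neurons, was carried by 8 of 16 Neurod6 cells (24.7% to 75.3%) and 0 of 16 Sox2 cells (0% to 20.6%), a difference of 50 points. The other fringe genes differed from Mfng: Lfng was carried by 2 cells and Rfng by 8, of which 3 were Neurod6 cells.

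Among genes that process and pass on the signal, some differed in share between classes and others were near equal. Differences of 25 points or more were also found among all genes. In Neurod6 against Sox2 cells 13.9% of all genes were lower and 9.43% higher, and in Eomes against Sox2 cells 11.7% and 5.39%. Whether the genes named here differed more often than all genes was not tested. Rbpj, the DNA-binding partner of Notch, was carried by 8 of 16 Sox2, 5 of 10 Eomes and 9 of 16 Neurod6 cells. Snw1, a cofactor of RBPJ, was carried by 10 of 16, 6 of 10 and 10 of 16. Of the subunits of gamma-secretase, which makes the last cut in the receptor, Psenen was carried by 45 of 65 cells and Aph1a by 11, and Aph1a stood at −27.5 points in Eomes against Sox2 cells. Ncstn, another subunit, was carried by 5 of 10 Eomes cells and 3 of 16 Sox2 cells, a difference of 31.2 points. Adam10, the protease of the preceding cut, was carried by 13 of 16 Neurod6 cells and 9 of 16 Sox2 cells. Its difference of 25 points lies just at the threshold, as do those of Psenen, Aph1a and Numb, at −25 points in Neurod6 against Sox2 cells, and of Itch, at 25 points in Eomes against Sox2 cells. Dtx4 stood at −31.2 points and the corepressor gene Tle3 at 37.5 points in Neurod6 against Sox2 cells, and the corepressor gene Ctbp1 stood at −32.5 points in Eomes against Sox2 cells.

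Neurog2, a proneural gene that acts upstream of Dll1, and Hes6, a Hes relative that promotes differentiation, were highest in share in Eomes cells. Neurog2 was carried by 8 of 10 Eomes cells and 4 of 16 Sox2 cells, a difference of 55 points. Hes6 was carried by 7 of 10 Eomes cells and 3 of 16 Sox2 cells (51.2 points). Between Dlx and Neurod6 cells, Hes6 was carried by 5 of 10 and 3 of 16 (31.2 points), and Neurog2 by 0 of 10 and 6 of 16 (−37.5 points). That comparison also held lower shares of Jag1, Dner, Adam10, Tle1 and Tle3 in Dlx cells, so that 6 of the 38 genes were lower and 2 were higher there, where 9.41% and 5.19% of all genes were. Cells with Dll1 carried Neurog2 in 9 of 18 cases, against 10 of 47, and Hes6 in 11 of 18, against 9 of 47.

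**Figure D5:**
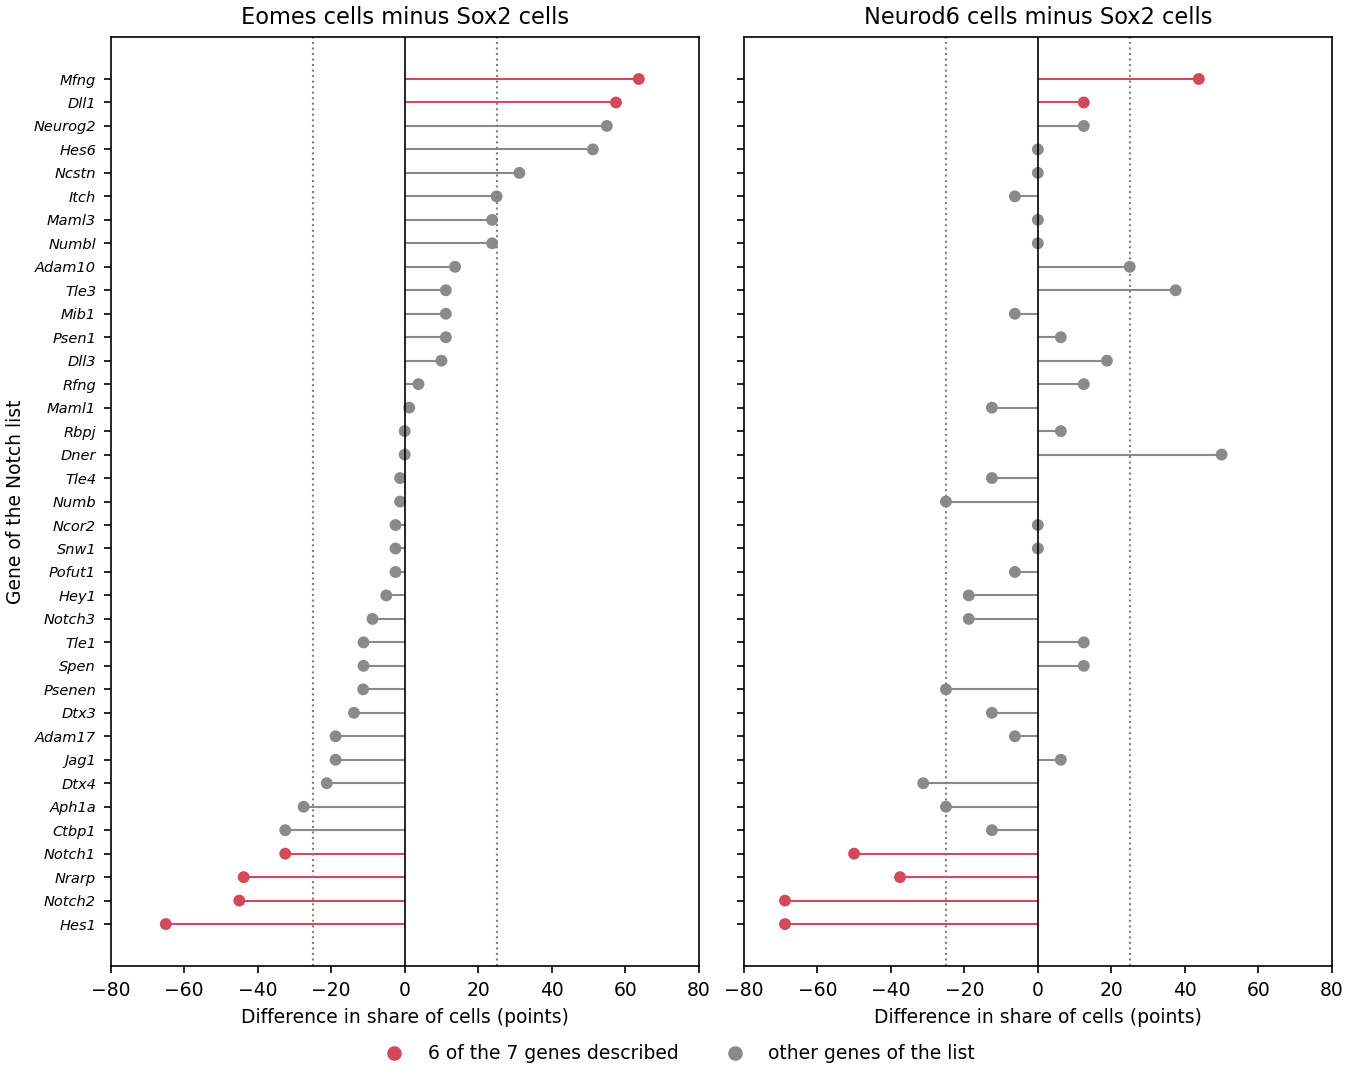
Difference in the share of cells at 10 CPM or more (x axis, percentage points) for 37 of the 38 genes of the Notch list carried by at least 5 cells, in Eomes minus Sox2 cells and in Neurod6 minus Sox2 cells, with dotted lines at 25 points either way. Hes1, Notch2, Nrarp and Notch1 lie left of the lower line in both panels, Mfng lies right of the upper line in both, and Dll1 does so in Eomes cells.

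The genes most like each of the 7 in their pattern were taken by Spearman's rho across the 65 cells among 8307 genes outside the lists, and had to have the same sign in every title set. Hes5, carried by 3 cells, was left out of this search. For Notch1 the highest were Dut (0.614), which encodes a dUTPase, Cpsf1 (0.605), Mcm3 (0.58), a subunit of the replicative helicase, Rrm1 (0.573), which encodes a subunit of ribonucleotide reductase, and Cdca7 (0.568). Of the 20 cells with Notch1, 18 carried Dut. The lowest were the thymosin gene Tmsb10 (−0.671), Maged2 (−0.551) and the stathmin gene Stmn1 (−0.543). For Notch2 the highest were Hells (0.7), a chromatin remodelling helicase gene, Rrm1 (0.638), Mcm3 (0.605), Phgdh (0.586), which encodes an enzyme of serine synthesis, and Rbbp7 (0.582). Hells was carried by 17 of the 20 cells with Notch2. The lowest were Snrpn (−0.555), carried by 0 of those 20 cells, Sorbs2 (−0.554) and Tagln3 (−0.55).

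For Hes1 the highest were the ribosomal protein genes Rpl32 (0.662), Rpl41 (0.646) and Rpl14 (0.638), the peroxiredoxin gene Prdx1 (0.633) and the predicted gene Gm5148 (0.617). All 65 cells carried the 3 ribosomal protein genes. Within sets 1, 2 and 3 rho was 0.457, 0.393 and 0.682 for Rpl32 and 0.626, 0.384 and 0.412 for Rpl41. It was 0.518, 0.306 and 0.552 for Rpl14 and 0.619, 0.175 and 0.605 for Prdx1. Hes1 was also correlated with total reads (rho 0.577), and the part of depth in these values was not tested. The lowest was Myt1 (−0.718, and −0.673, −0.306 and −0.707 within the sets), a zinc finger gene of differentiating neurons, which was carried by 1 of the 21 cells with Hes1, by 75% of Neurod6 cells and by 0% of Sox2 cells. Map2 (−0.668), a gene of neuronal microtubules, and Sox11 (−0.647) followed. For Nrarp the highest were Etv5 (0.545), an ETS transcription factor gene carried by 7 cells, of which 6 carried Nrarp, the imprinted gene Mest (0.519), carried by all 12 Nrarp cells, Lrrc42 (0.512), Vamp3 (0.503) and 1190002N15Rik (0.491). The lowest were Abracl (−0.434), Cdadc1 (−0.398) and Tmsb10 (−0.397).

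For Dll1 the highest was Gadd45g (0.677, and 0.771, 0.653 and 0.377 within the sets), a stress and cell cycle exit gene, which was carried by 14 of the 18 cells with Dll1 and by 80% of Eomes cells, and by 12.5% of Sox2 cells. Prmt8 (0.574), the noncoding RNA gene Miat (0.542), carried by all 18 Dll1 cells, Igsf8 (0.506), carried by 100% of Eomes cells, and Rcor2 (0.49), a corepressor gene, followed. Low values were those of the calcium pump gene Atp2b1 (−0.382) and Lrrc4c (−0.373). For Mfng the highest were the adducin gene Add2 (0.527), Hagh (0.496), Gadd45g (0.496), Mxd1 (0.489) and Gba2 (0.475), of which Hagh, Mxd1 and Gba2 were carried by 7, 2 and 4 cells. Gadd45g was carried by 14 of the 21 cells with Mfng. The lowest were Arl4a (−0.488), carried by 0 of those 21 cells, Tmem50a (−0.451) and A830082N09Rik (−0.443).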

How the data were processed

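Values are raw counts as deposited: the authors' table gives, for each of 11971 genes in each of 65 cells, a whole number of reads. The submitters' processing notes name TopHat2, HTSeq and build mm9, with neither versions nor roles, and no gene annotation is given in the sources used here. The SMARTer kit named in the labels' protocols does not keep strand. On GRCm38, Notch1 overlaps 0610009E02Rik and Mir6996, and Notch2 overlaps Gm40103. These overlapping genes were not among the 11971 genes measured, and reads there cannot be told apart.

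From the deposited counts, CPM was computed over each cell's total, and logged as log2(CPM + 1). Thresholds were 10 CPM for a cell to carry a gene, 5 carrying cells for a gene to be compared and 25 points for a difference in share. Intervals are exact Clopper-Pearson intervals, and reads without molecular identifiers are not independent molecules. Because the group is 1 sample, no test was made. The count of share differences was tried on simulated data with planted all-or-none differences between Neurod6 and Sox2 cells. The rank correlation was tried on simple ordered values, and the other steps were not tried in this way. Python 3.11.15, numpy 2.4.6, pandas 2.3.3, scipy 1.17.1, R 4.3.3 and scran 1.30.0 were used.

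The 7 genes, the lists, the classes and the rule for naming genes were chosen with earlier results of these data known, so the counts of the lists are descriptions. Named genes are the 7, the Notch list, the class genes and cell type markers, and for each of the 7 carried by at least 5 cells the 5 genes with the highest rho and the 3 with the lowest, at a mean of at least 10 CPM and of 1 sign in all 3 title sets. Alternatives were other thresholds, scran size factors, thinning to 1000000 reads, leaving out shallow cells or each title set, a class of Sox2 or Pax6 cells, and other correlation measures. Some genes that this rule or the Notch list takes in are not reported here, though the counts over the list include them.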

Additional observations from a re-analysis of the deposited data

How the results depend on the processing

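Of 252 alternative values of 28 results, 227 stayed within the tolerance and 25 moved. The tolerance was the counting interval for a share, 1.5 times for a count and 0.2 for a correlation. With scran size factors, totals thinned to 1000000 reads, the 3 cells under 1000000 reads left out, ranks within title sets or a class of Sox2 or Pax6 cells, none of them moved. The definition of a carrying cell moved most. With at least 1 read, the share of cells was 73.8% for Notch1, 66.2% for Notch2, 46.2% for Hes1, 26.2% for Hes5, 60% for Dll1 and 67.7% for Mfng, and within Sox2 cells 100% for Notch1, 100% for Notch2 and 93.8% for Hes1. Dll1 or Mfng was then in 75% of cells with a target (82.8% without) and in 79.2% of cells with a receptor (75% without a receptor, so the direction turned). The genes then higher numbered 0 in Neurod6 minus Sox2 cells (5.48% of all genes were), 1 in Eomes minus Sox2 cells (5.45%) and 1 in Dlx minus Neurod6 cells (7.13%). At 1 CPM the shares were 47.7% for Notch1, 44.6% for Notch2 and 16.9% for Hes5, and at 50 CPM Hes5 was carried by 0% of cells. Without title set 1, 2 of the 6 genes were higher in Dlx than in Neurod6 cells (19.9% of all genes were). Sets 2 and 3 held only 2 and 2 Dlx cells and 2 and 3 Neurod6 cells. Without title set 2, 1 of the 6 genes was lower in Dlx cells (11.8% of all genes). Without title set 3, Hes1 was carried by 15.9% of 44 cells. As Pearson's r with a pseudocount of 10, the correlation of Notch2 and Hes1 was 0.19 and that of Hes1 and Hes5 was 0.283. Hes1 and Hes5 had 0.351 with a pseudocount of 1 and 0.35 with the highest cell set to the next. Differences under 25 points also turned in direction, such as that of Dll1 in Neurod6 minus Sox2 cells, at −11.1 points without title set 1, and that of Mfng in Dlx minus Neurod6 cells, at 27.5 points with at least 1 read. The cause of these moves was not tested. No paired analysis was possible because the cells form 1 group. Hes5 had reads in 17 cells and 10 CPM in 3, and the shallowest cell counts every detected gene as carried.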
